A study of Homo sapiens with 8 samples.

Results

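The genes described here are the core autophagy machinery and the cargo receptors that feed it. They were 40 genes taken from a list by function (initiation, conjugation and cargo recognition), out of 23393 gene symbols in the table of read counts. No measured value was a criterion, but the list was made with earlier results of these data known. All 40 were in the table, and all 40 passed the filter on low counts, which 15262 genes of the whole table passed. RNA was sequenced from MDA-MB-231, an established human triple-negative breast cancer line that makes little of the arginine-synthesizing enzyme ASS1, and from a ρ0 derivative of it, which the labels call p0.

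Each of the 4 groups had 2 libraries, and all cells came from MDA-MB-231 and, by the labels, grew in high-glucose DMEM with serum. Parental and ρ0 cells were each sequenced as controls and after arginine had been withheld for 48 h (called starved below). The labels give the starvation as arginine deiminase (ADI), an enzyme that degrades arginine, at 0.3 µg/mL in full medium, whereas the study's text speaks of medium without arginine. The ρ0 cells were 1 clone, number 27, so the effect of losing mitochondrial DNA and the effect of having picked that clone cannot be told apart. They had been depleted with ethidium bromide, and per the study's methods the line was kept in medium with added pyruvate, uridine and ethidium bromide, so a medium difference between the lines cannot be told apart from the line either. Transcripts of the mitochondrial genome were not analysed here, so the ρ0 state itself was not checked.

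Autophagy delivers cytoplasm, protein aggregates and organelles to the lysosome inside a double-membrane vesicle, the autophagosome. When amino acids run short, the kinase mTORC1 releases the ULK1 kinase complex, which switches on a lipid kinase complex around VPS34, and membrane then grows as lipid is supplied to it. Conjugation enzymes attach the small ubiquitin-like ATG8 proteins (the LC3 and GABARAP proteins) to this membrane, and cargo receptors such as p62 tie the cargo to them. Much of this control acts on proteins, and the values below are transcript levels only, so they say nothing directly about autophagic flux.

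Libraries held between 25259503 and 31022155 counts. The autophagy genes took 0.350% of the counts in both parental control libraries and 0.370% and 0.369% in the starved ones. In ρ0 cells they took 0.387% and 0.365% in the controls and 0.479% and 0.472% after starvation. SQSTM1, 1 of the 40, held 6226 of 108543 and 5939 of 93266 of these counts in the parental controls. After starvation it held 15946 of 96694 and 16585 of 108368 in parental cells. In ρ0 cells it held 15914 of 111794 and 28017 of 111576 in the controls, and 34888 of 148716 and 26585 of 119219 after starvation. The shares therefore do not describe the list without SQSTM1. The ρ0 control libraries stood apart, since the biological variation between them came to 25.1% (coefficient of variation), where it was 5.16% for the parental controls, 2.29% for the starved parental pair and 1.84% for the starved ρ0 pair. The median gap between the ρ0 control libraries over the 40 genes was 0.25 on the log2 scale, and the widest was that of WIPI1, at 1.36. Called values that moved by over 1.5 times without 1 of these libraries are therefore given with all libraries and without each of them. The other replicate pairs also differed by more than sampling noise. Nothing in the labels says that replicates were separate cultures, so the p-values measure the spread between these libraries, which may be technical. For each gene, 1 estimate of spread was shared by all 4 groups. The wide ρ0 control pair therefore also entered the p-values for starvation in parental cells. In bulk RNA, fewer cells expressing a gene and less RNA of it per cell cannot be told apart. The markers of the line were abundant in every library, with VIM from 522 to 3635, CD44 from 517 to 1583, EGFR from 446 to 894 and AXL from 720.5 to 1387 CPM (the count scaled to a common library size). ESR1 and PGR stayed at or below 0.18 CPM, CDH1, GATA3 and FOXA1 reached at most 15.9, 18.6 and 9.82 CPM, and of the blood markers PTPRC reached 0.452 CPM while CD3E and HBB had no counts.

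Promoter sequences were available from RefSeq (GRCh38.p14) for 35 of the 40 genes, in 44 windows that reach from 250 bases before to 50 bases after the first transcribed base. The counts themselves were made on hg19, so the coordinates here belong only to the sequences. The genes without a window were ATG4D, UVRAG, RB1CC1, MAP1LC3A and EPG5. The 250 bases upstream of 4 genes are shown 5′ to 3′ on the gene's own strand. ULK1 is shown because its transcript moved in opposite directions in the lines, ATG16L2 because it fell furthest, and MAP1LC3B because it rose in both lines. ATG3 is shown as the gene with 2 copies of the E-box letters in its window. Capitals mark the letters of 4 motifs that were searched on both strands.
ULK1, chr12:131894372-131894621, plus strand: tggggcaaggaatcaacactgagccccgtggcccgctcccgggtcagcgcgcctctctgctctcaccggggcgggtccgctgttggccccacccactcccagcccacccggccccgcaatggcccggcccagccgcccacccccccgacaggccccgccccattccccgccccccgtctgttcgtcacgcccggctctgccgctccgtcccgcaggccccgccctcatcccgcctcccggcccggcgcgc
ATG16L2, chr11:72814161-72814410, plus strand: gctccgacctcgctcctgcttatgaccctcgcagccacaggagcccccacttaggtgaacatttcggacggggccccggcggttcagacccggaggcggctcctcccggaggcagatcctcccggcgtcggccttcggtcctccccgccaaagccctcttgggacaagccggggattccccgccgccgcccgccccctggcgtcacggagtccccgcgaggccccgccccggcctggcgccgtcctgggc
MAP1LC3B, chr16:87392086-87392335, plus strand: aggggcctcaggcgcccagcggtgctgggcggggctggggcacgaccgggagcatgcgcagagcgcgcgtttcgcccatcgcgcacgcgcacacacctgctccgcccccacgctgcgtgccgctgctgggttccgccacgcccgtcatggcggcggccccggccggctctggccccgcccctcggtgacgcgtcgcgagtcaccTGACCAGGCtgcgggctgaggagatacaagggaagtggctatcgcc
ATG3, chr3:112561963-112562212, minus strand: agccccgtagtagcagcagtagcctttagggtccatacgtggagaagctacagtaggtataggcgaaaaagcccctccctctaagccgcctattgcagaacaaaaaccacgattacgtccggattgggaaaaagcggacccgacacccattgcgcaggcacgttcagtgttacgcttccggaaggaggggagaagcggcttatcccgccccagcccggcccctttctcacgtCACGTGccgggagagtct

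The motifs were the E-box CACGTG, which MiT/TFE factors such as TFEB bind, the ATF4 and C/EBP element TGATGNAA, the FOXO element GTAAACA and the antioxidant response element TGACNNNGC, which NRF2 binds. The E-box stood in 3 of the 44 windows (those of ATG3, ATG14 and ULK3), against 7.26% of all 35116 promoter windows of this length. In ATG3 it lay at -18, in capitals above, and at 5, which is outside the stretch shown, counting the first transcribed base as 0. The antioxidant element was in 4 windows (MAP1LC3B, at -46 and in capitals above, and CALCOCO2, NCOA4 and ULK3), and 13.4% of all windows held it. The FOXO letters were found in the CALCOCO2 window alone (3.42% of all windows), and the ATF4 letters in none of the 44 (3.62% of all windows). No 2 matches overlapped in the sequences shown, and ULK1 and ATG16L2 had none of the letters in their windows. The windows of ULK1, ATG16L2 and MAP1LC3B were rich in G and C, at 78.3%, 75.3% and 75.7%, and that of ATG3 had 59.0%, where the median was 62.2% over the autophagy genes and 58.7% over all windows. These matches describe letters only and say nothing about binding.

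In parental cells, some autophagy genes were higher and others lower after arginine starvation, in shares near those of all tested genes. A gene is called here when its Benjamini-Hochberg adjusted p over all tested genes was under 0.05 in edgeR's quasi-likelihood test, fitted to all 8 libraries, and it is a DEG when its log2 fold change also lay above 1 or below -1. Of the 40 genes, 14 were higher and 11 lower after starvation, and 15 were not called. This is 35.0% higher and 27.5% lower, beside 30.4% and 35.5% of all tested genes. Of these, 3 were up-regulated DEGs (SQSTM1, MAP1LC3B and TAX1BP1) and 4 down-regulated ones (ATG16L2, WIPI2, ULK1 and ATG10), while 12.7% and 22.1% of all tested genes were DEGs in these directions. The median log2 fold change over the 40 genes was 0.08, beside -0.07 over all tested genes. It turned to -0.04 with upper quartile scaling and to -0.08 with total counts, which moved the median of all genes to -0.19 and -0.23. The sign of the list's median therefore depends on the scaling. With the 4 parental libraries fitted alone, 19 were higher and 13 lower (80%, beside 83.0% of all genes tested in that fit).

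In ρ0 cells, 15 of the 40 genes were higher after starvation, 8 were lower and 17 were not called. These were 37.5% and 20% of the list, beside 19.2% and 22.1% of all tested genes. The up-regulated DEGs were ULK1, GABARAPL1 and EPG5, and the down-regulated DEG was ATG16L2, while 4.22% and 8.19% of all genes were DEGs in these directions. The median log2 fold change was 0.16 over the 40 genes and -0.02 over all tested genes. Without ρ0 control replicate 1 the counts were 20 higher and 10 lower, and without replicate 2 they were 21 and 12. The number called rose over the whole table as well, so that 75.0% and 82.5% of the list stood beside 62.8% and 62.4% of all tested genes in these fits, where with all libraries 57.5% stood beside 41.3%. In such fits the remaining ρ0 control library is assumed to vary as the other groups do. With the 4 ρ0 libraries fitted alone, 8 were higher and 3 lower (27.5%, beside 22.1% of all genes tested in that fit). The ρ0 calls of ATG4A, ATG9A, ATG13 and GABARAP were lost without starved ρ0 replicate 1 and also without replicate 2, those of ATG7 and UVRAG without replicate 1, and that of ATG5 without replicate 2.

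**Figure D1:**
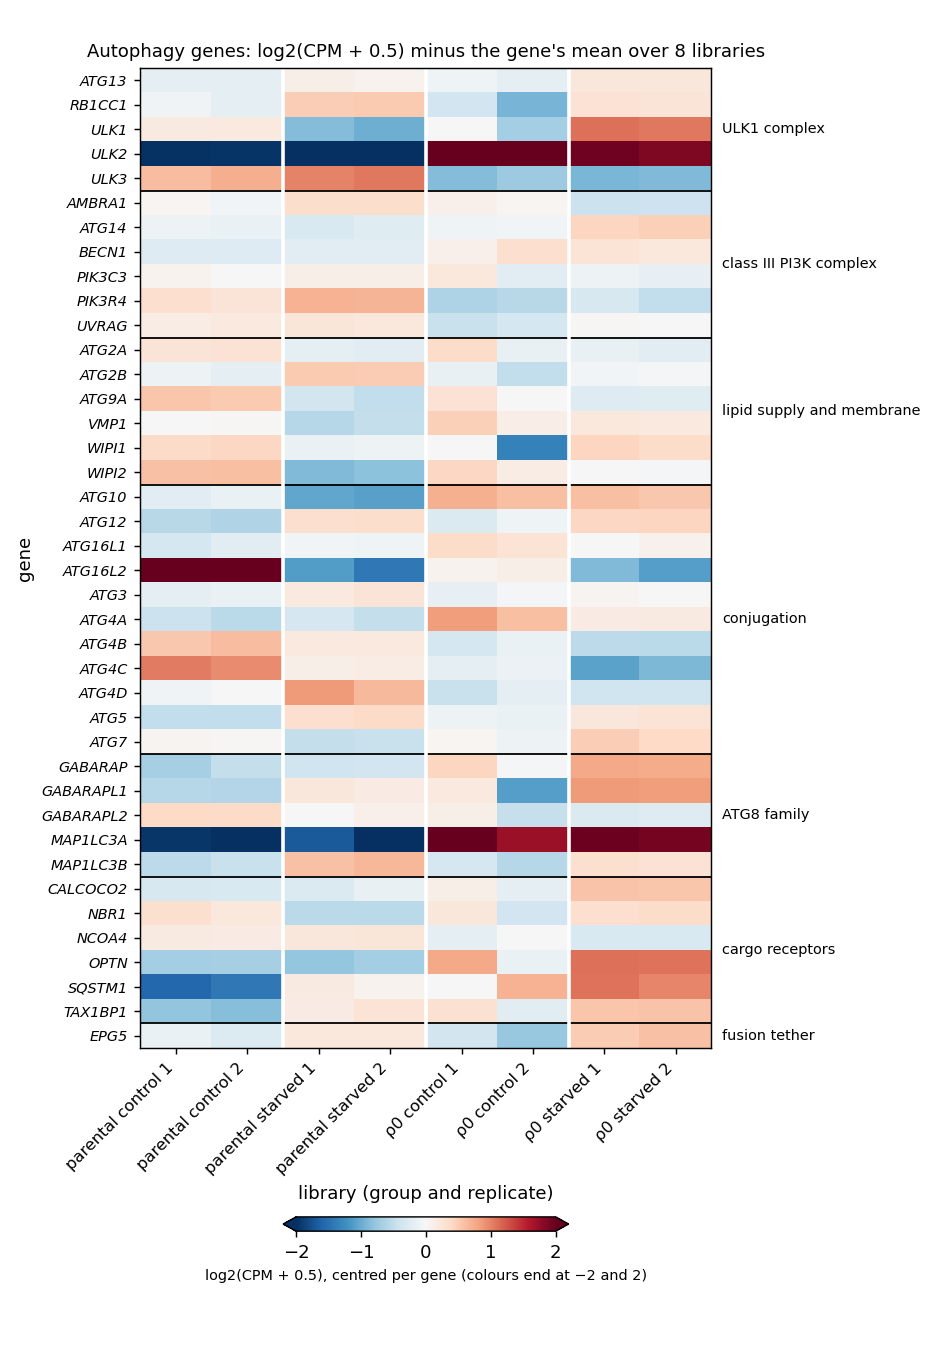
Levels of the 40 autophagy genes in the 8 libraries. Each row is a gene, ordered by function, each column a library, and the colour is log2(CPM + 0.5) minus the gene's mean over the 8 libraries, with colours ending at -2 and 2. The column of ρ0 control 2 differs from that of ρ0 control 1 for WIPI1 and GABARAPL1, ULK2 and MAP1LC3A are low in all 4 parental libraries, and ATG16L2 is highest in the parental controls.

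The responses of the lines can be set side by side, although both use their own controls and the test of their difference uses all 4 groups. Of the 40 genes, 8 were called higher in both lines and 5 lower in both, or 20% and 12.5% of the list, beside 13.1% and 14.6% of all tested genes. Another 2 genes, ULK1 and ATG7, were lower in parental and higher in ρ0 cells, and AMBRA1 was higher in parental and lower in ρ0 cells. These 3 genes with opposite calls were 7.5% of the list, beside 3.64% of all tested genes. Of the rest, 5 were called higher and 4 lower in parental but not in ρ0 cells (12.5% and 10.0%, beside 15.6% and 19.0% of all tested genes), and 5 higher and 2 lower in ρ0 but not in parental cells (12.5% and 5%, beside 4.12% and 5.86%). Another 8 were called in neither line (20%, beside 24.1%). The difference between the responses, ρ0 minus parental, was called positive for 11 genes and negative for 7, or 27.5% and 17.5% of the list, beside 21.6% and 18.8% of all tested genes. Its median was 0.13 over the list and 0.02 over all tested genes. Without ρ0 control replicate 1 it was called positive for 19 and negative for 14 genes, and without replicate 2 for 14 and 14 (82.5% and 70.0% of the list in all, beside 65.9% and 59.5% of all tested genes). With any 1 of the other 6 libraries left out, which leaves 1 library in its group, fewer differences were called than with all libraries. This held in similar shares for the list and for all tested genes. The differences of ATG4A, ATG9A, ULK3, UVRAG, SQSTM1, CALCOCO2 and EPG5 then lost their calls whichever of the 6 was left out, that of ATG16L1 in 5 of the 6 cases, and those of ATG5 and ATG10 without starved parental replicate 2 or starved ρ0 replicate 1.

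**Figure D2:**
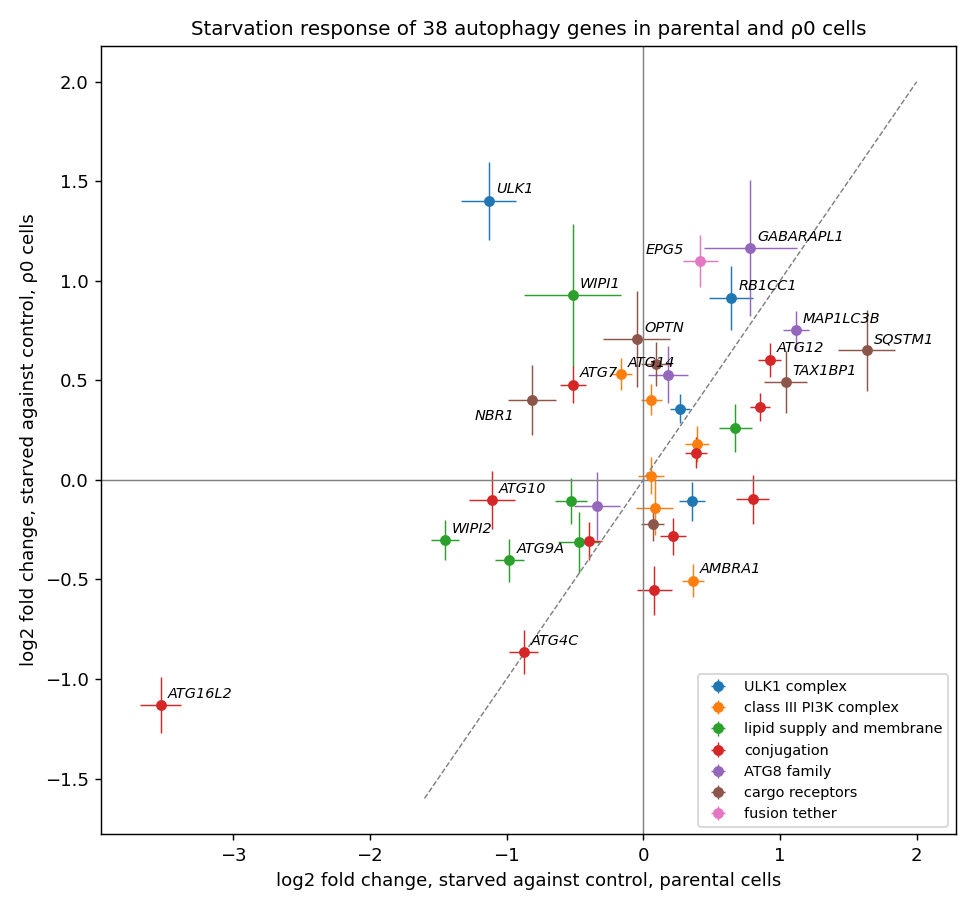
Log2 fold change on starvation in parental cells (x axis) and in ρ0 cells (y axis) for 38 autophagy genes, with bars of 1 standard error and colours for functional groups. ULK2 and MAP1LC3A are not drawn because they were near 0 in the parental line, and the dashed line marks equal responses. ULK1, NBR1, WIPI1 and ATG7 lie at the upper left, AMBRA1 at the lower right, and ATG16L2 fell in both lines.

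The ULK1 complex starts autophagosome formation. ULK1, its kinase, had 41.1 and 41.9 CPM in the parental controls and 19.6 and 18.2 CPM in the starved parental libraries. In ρ0 cells it had 36.1 and 22.6 CPM in the controls and 79.0 and 76.0 CPM after starvation. It was thus lower in both starved parental libraries than in any control, and higher in both starved ρ0 libraries than in any other library. The log2 fold change was -1.13 (SE 0.20, edgeR adjusted p = 0.0016) in parental and 1.40 (SE 0.20, edgeR adjusted p = 0.0014) in ρ0 cells. The difference of 2.53 (SE 0.28, edgeR adjusted p = 0.00084) was the largest called among the 40 genes. It was 2.92 without ρ0 control replicate 1 and 2.21 without replicate 2, and ULK1 was called in these directions in every alternative of the processing.

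RB1CC1 encodes FIP200, the scaffold of the complex. It rose in both lines, from 96.9 and 88.9 CPM to 143 and 147 CPM in parental cells and from 77.7 and 53.3 CPM to 125 and 122 CPM in ρ0 cells. The groups did not overlap within either line. The log2 fold changes were 0.64 (SE 0.16, edgeR adjusted p = 0.0086) and 0.92 (SE 0.16, edgeR adjusted p = 0.0037), and the latter was 1.21 without ρ0 control replicate 1 and 0.68 without replicate 2. The parental call was lost without parental control 2. ATG13, the regulatory subunit that mTORC1 phosphorylates, rose by 0.27 in parental and 0.36 in ρ0 cells on the log2 scale (edgeR adjusted p = 0.012 and 0.0065). The parental call of ATG13 was lost with upper quartile scaling, with total counts and with any 1 parental library left out.

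ULK3 and ULK2 are kinases related to ULK1, and they set the lines apart more than starvation did. ULK3 had 44.5 and 48.5 CPM in parental controls, 58.0 and 60.9 CPM in starved parental cells, 15.7 and 17.3 CPM in ρ0 controls and 15.2 and 15.4 CPM in starved ρ0 cells. All 4 ρ0 libraries lay below all 4 parental ones. In full medium the log2 difference, ρ0 minus parental, was -1.49 (SE 0.10, edgeR adjusted p = 1.5e-05). ULK3 rose by 0.35 in starved parental cells (edgeR adjusted p = 0.012), a call that was lost with upper quartile or total count scaling and without parental control 1 or either starved parental library, and its ρ0 change of -0.11 was not called.

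ULK2 was at the floor of the assay in the parental line. It had 1 and 1 counts in the parental controls and 0 and 0 in the starved parental libraries, but 231 and 276 counts in the ρ0 controls and 223 and 171 in the starved ρ0 libraries. With the parental level set at a floor of 3 counts per library, the ρ0 control mean was at least 81.0-fold higher, and the starved ρ0 mean at least 61.5-fold higher than in starved parental cells. In ρ0 cells its level was 8.01 and 8.88 CPM before and 7.54 and 7.08 CPM after starvation, a log2 change of -0.21 that was not called (edgeR adjusted p = 0.32). Per kilobase of exon, ULK1 made up 32.4% and 31% of the ULK1, ULK2 and ULK3 signal in parental controls and 15.0% and 13.5% after starvation. In ρ0 cells its share was 49.3% and 35.7% before and 68.9% and 68.0% after starvation.

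**Figure D3:**
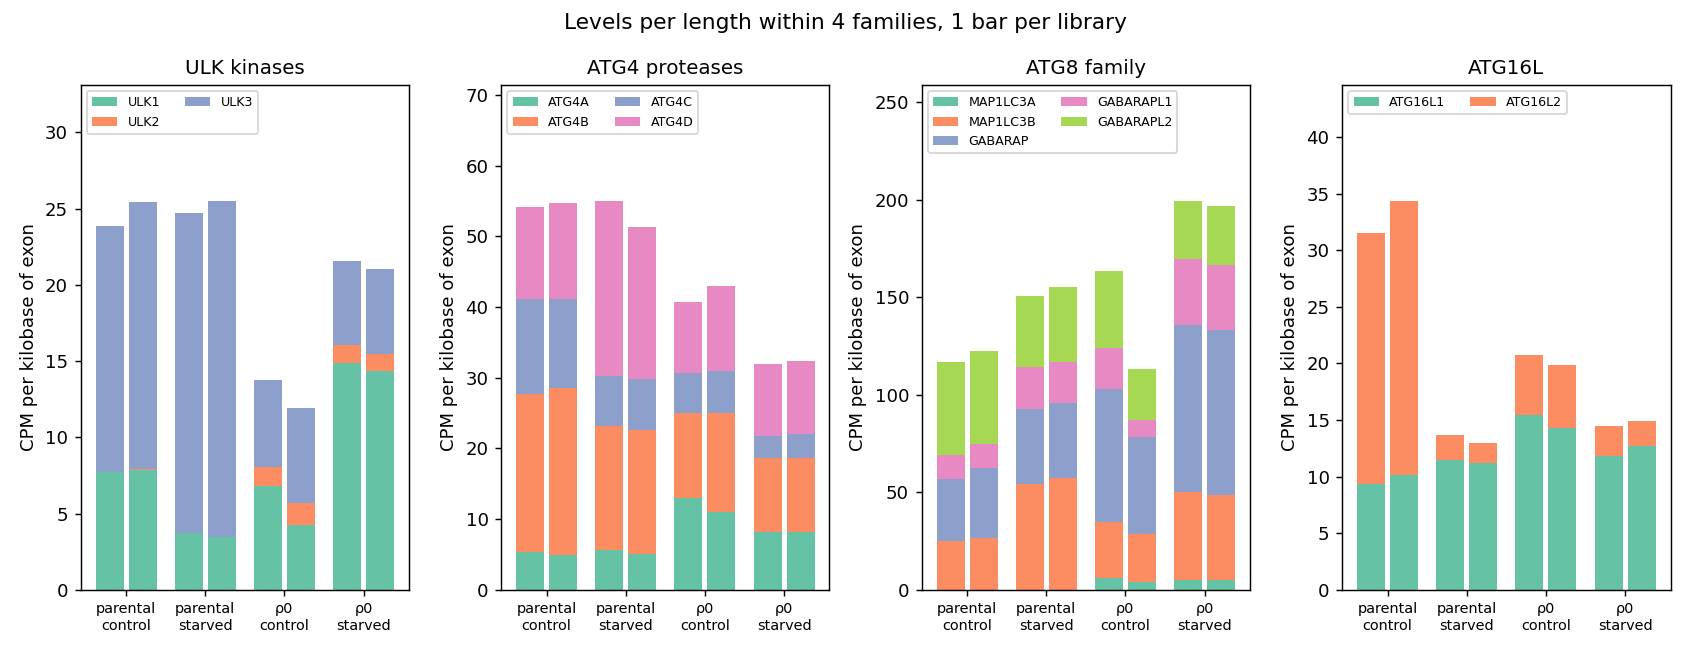
Levels per length (CPM per kilobase of exon, y axis) of the members of 4 families, stacked in 1 bar per library for the 8 libraries. The ULK1 segment shrinks with starvation in parental cells and grows in ρ0 cells, ATG16L2 holds the larger part of the ATG16L signal in the parental controls and the smaller part in the other 3 groups, and the MAP1LC3B segment grows with starvation in both lines.

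The class III phosphatidylinositol 3-kinase complex marks the growing membrane with a lipid, and its members moved little. In parental cells PIK3R4 and AMBRA1 were higher and the other 4 were not called, and in ρ0 cells ATG14 and UVRAG were higher, AMBRA1 was lower and 3 were not called. Of all tested genes, 30.4% were higher in parental cells, and 19.2% were higher and 22.1% lower in ρ0 cells. AMBRA1, an activator of the complex, was chosen for its opposite calls after the values were seen. It had 44.1 and 41.2 CPM in parental controls, 54.9 and 54.8 CPM in starved parental cells, 46.0 and 44.1 CPM in ρ0 controls and 31.6 and 31.8 CPM in starved ρ0 cells. Starved parental libraries were the highest and starved ρ0 libraries the lowest. Its log2 changes were 0.36 (SE 0.08, edgeR adjusted p = 0.0056) and -0.51 (SE 0.08, edgeR adjusted p = 0.0028), and their difference was -0.87 (SE 0.12, edgeR adjusted p = 0.0016). The parental call was lost with total counts, and the other calls of AMBRA1 were kept in every alternative.

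ATG14, the subunit that directs the complex to autophagosome formation, had 36.8 and 37.5 CPM in ρ0 controls and 52.9 and 54.5 CPM in starved ρ0 cells, a log2 change of 0.53 (SE 0.08, edgeR adjusted p = 0.0021). The parental value was -0.16 (edgeR adjusted p = 0.11), and the difference of 0.69 was called (edgeR adjusted p = 0.0037). UVRAG, which marks a different form of the complex, rose by 0.40 in ρ0 cells (edgeR adjusted p = 0.0060) and had 0.06 in parental cells. PIK3R4, the VPS15 subunit, rose by 0.39 in parental cells (edgeR adjusted p = 0.0051). BECN1 (Beclin 1) lay between 51.2 and 53.3 CPM in all parental libraries, with log2 values of 0.06 and 0.02 on starvation. PIK3C3, the VPS34 kinase itself, had values of 0.08 and -0.14, and neither gene was called in either line.

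Of the 6 genes for lipid supply and membrane delivery, 4 were lower in starved parental cells, 1 (ATG2B) was higher and WIPI1 was not called, where 35.5% of all tested genes were lower. In ρ0 cells 2 were lower and 4 were not called, where 22.1% of all tested genes were lower. WIPI2 binds the lipid that the kinase complex makes and recruits ATG16L1. It had 125 and 125 CPM in parental controls, 44.6 and 46.8 CPM in starved parental cells, 110.4 and 91.3 CPM in ρ0 controls and 82.0 and 81.5 CPM in starved ρ0 cells. The starved libraries were below the controls in both lines, and far below them in parental cells. The log2 fold changes were -1.45 (SE 0.10, edgeR adjusted p = 2.4e-05) and -0.30 (SE 0.10, edgeR adjusted p = 0.044), with a difference of 1.15 (SE 0.14, edgeR adjusted p = 0.0012). The ρ0 call was lost in 10 of 17 settings, among them each single parental or starved ρ0 library left out, and the value was -0.16 without ρ0 control replicate 1 and -0.42 without replicate 2. The parental call and the difference were kept in every alternative.

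ATG9A, the scramblase of the vesicles that seed the membrane, fell by 0.98 in parental cells and by 0.40 in ρ0 cells on the log2 scale (edgeR adjusted p = 0.00016 and 0.020), and the latter value was -0.26 without ρ0 control replicate 1 and -0.52 without replicate 2. VMP1, an ER scramblase, fell by 0.53 in parental cells (edgeR adjusted p = 0.0049) and had -0.11 in ρ0 cells. The lipid transfer proteins ATG2A and ATG2B went apart in parental cells, with -0.47 and 0.67 (edgeR adjusted p = 0.027 and 0.0016), and the ATG2A call was lost with any 1 parental or starved ρ0 library left out. WIPI1 had 64.1 and 65.3 CPM in parental controls and 44.8 and 45.7 CPM in starved parental cells, and 49.3 and 18.9 CPM in ρ0 controls and 66.3 and 63.3 CPM in starved ρ0 cells. The ρ0 controls spanned a wider range than the change in parental cells, and no WIPI1 contrast was called in the fit to all 8 libraries. The starved parental libraries were below the parental controls, and the shared estimate of spread included the wide ρ0 control pair. The parental change of WIPI1 was -0.52 (SE 0.36, edgeR adjusted p = 0.24), and it was -0.52 and -0.48 without ρ0 control replicates 1 and 2. Its ρ0 value of 0.93 was 1.78 without ρ0 control replicate 1 and 0.41 without replicate 2. The WIPI1 difference of 1.44 (SE 0.51, edgeR adjusted p = 0.055) was 2.30 and 0.89 in the same fits.

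The conjugation enzymes held both the deepest fall and several steady rises. In parental cells 4 of 11 were higher, 5 lower and 2 not called, and in ρ0 cells 3 were higher, 5 lower and 3 not called. These are 36.4% and 45.5% of the group in parental cells, beside 30.4% and 35.5% of all tested genes, and 27.3% and 45.5% in ρ0 cells, beside 19.2% and 22.1%. ATG12 and ATG5, which are joined to each other and act with ATG16L1 to place LC3 on the membrane, rose in both lines. ATG12 went from 52.9 and 51.4 to 97.9 and 99.9 CPM in parental cells and from 63.9 and 73.0 to 103 and 105 CPM in ρ0 cells. ATG5 went from 45.6 and 45.3 to 81.0 and 83.5 CPM in parental cells and from 60.01 and 58.4 to 75.4 and 77.3 CPM in ρ0 cells. Neither gene's groups overlapped. The ATG5 rise was smaller in ρ0 cells (0.37 against 0.86, difference -0.49, SE 0.10, edgeR adjusted p = 0.0082), while the ATG12 difference of -0.32 was not called (edgeR adjusted p = 0.069).

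ATG16L2 is a paralog of ATG16L1 that also binds ATG5. It had 73.2 and 79.8 CPM in parental controls and 7.41 and 5.85 CPM in starved parental cells. In ρ0 cells it had 17.4 and 18.1 CPM in the controls and 8.75 and 7.46 CPM after starvation. The parental controls thus stood above all other libraries, and both starved groups came to a like level. It changed by -3.53 (SE 0.15, edgeR adjusted p = 6.7e-06), or 11.6-fold lower, in parental cells and -1.13 (SE 0.14, edgeR adjusted p = 0.00094) in ρ0 cells, and the difference was 2.40 (SE 0.20, edgeR adjusted p = 0.00034). All these calls were kept in every alternative. Per length, ATG16L2 gave 70.5% of the signal of both ATG16L genes in each parental control and 16.4% and 13.7% after starvation. ATG16L1, the main family member in canonical autophagy, had values of 0.22 in parental cells (not called) and -0.28 in ρ0 cells (edgeR adjusted p = 0.043), a call lost in 11 of 17 settings.

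ATG7 is the activating enzyme of both conjugation systems, and ATG10 and ATG3 are their transfer enzymes. ATG7, chosen for its opposite calls after the values were seen, had 36.8 and 36.1 CPM in parental controls, 25.1 and 25.9 CPM in starved parental cells, 36.4 and 33.0 CPM in ρ0 controls and 49.99 and 46.7 CPM in starved ρ0 cells. Controls of both lines overlapped, and the starved groups lay on opposite sides of them. On the log2 scale the changes were -0.51 (SE 0.09, edgeR adjusted p = 0.0019) and 0.48 (SE 0.09, edgeR adjusted p = 0.0055), and the difference was 0.99 (SE 0.13, edgeR adjusted p = 0.0016). ATG10 was rare, with 2.94 and 3.13 CPM in parental controls, 1.43 and 1.38 CPM in starved parental cells, 6.04 and 5.56 CPM in ρ0 controls and 5.54 and 5.26 CPM in starved ρ0 cells. It fell in parental cells by 1.11 on the log2 scale (SE 0.17, edgeR adjusted p = 0.00082) and had -0.10 in ρ0 cells (edgeR adjusted p = 0.61), a difference of 1.01 (SE 0.22, edgeR adjusted p = 0.011). ATG3, whose upstream sequence is printed above, rose by 0.39 in parental cells (edgeR adjusted p = 0.0033) and had 0.14 in ρ0 cells (edgeR adjusted p = 0.20).

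The ATG4 proteases, which trim ATG8 proteins before conjugation and release them after it, did not move as 1 group. ATG4C fell in both lines, from 39.7 and 37.0 to 20.7 and 21.1 CPM in parental cells and from 16.7 and 17.5 to 8.82 and 9.98 CPM in ρ0 cells. Its log2 changes were -0.88 and -0.86 (edgeR adjusted p = 0.00023 and 0.00098). ATG4D rose in parental cells from 25.2 and 26.5 to 48.2 and 41.8 CPM, a log2 change of 0.80 (edgeR adjusted p = 0.00083), and had -0.10 in ρ0 cells. The difference of -0.90 (SE 0.17) was called for ATG4D (edgeR adjusted p = 0.0067). ATG4B fell by 0.39 and 0.31 in parental and ρ0 cells on the log2 scale, with calls that were lost in 3 and 8 of 17 settings, and its ρ0 value was -0.41 without ρ0 control replicate 1 and -0.18 without replicate 2. ATG4A fell by 0.56 in ρ0 cells (edgeR adjusted p = 0.0095) and had 0.08 in parental cells.

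**Figure D4:**
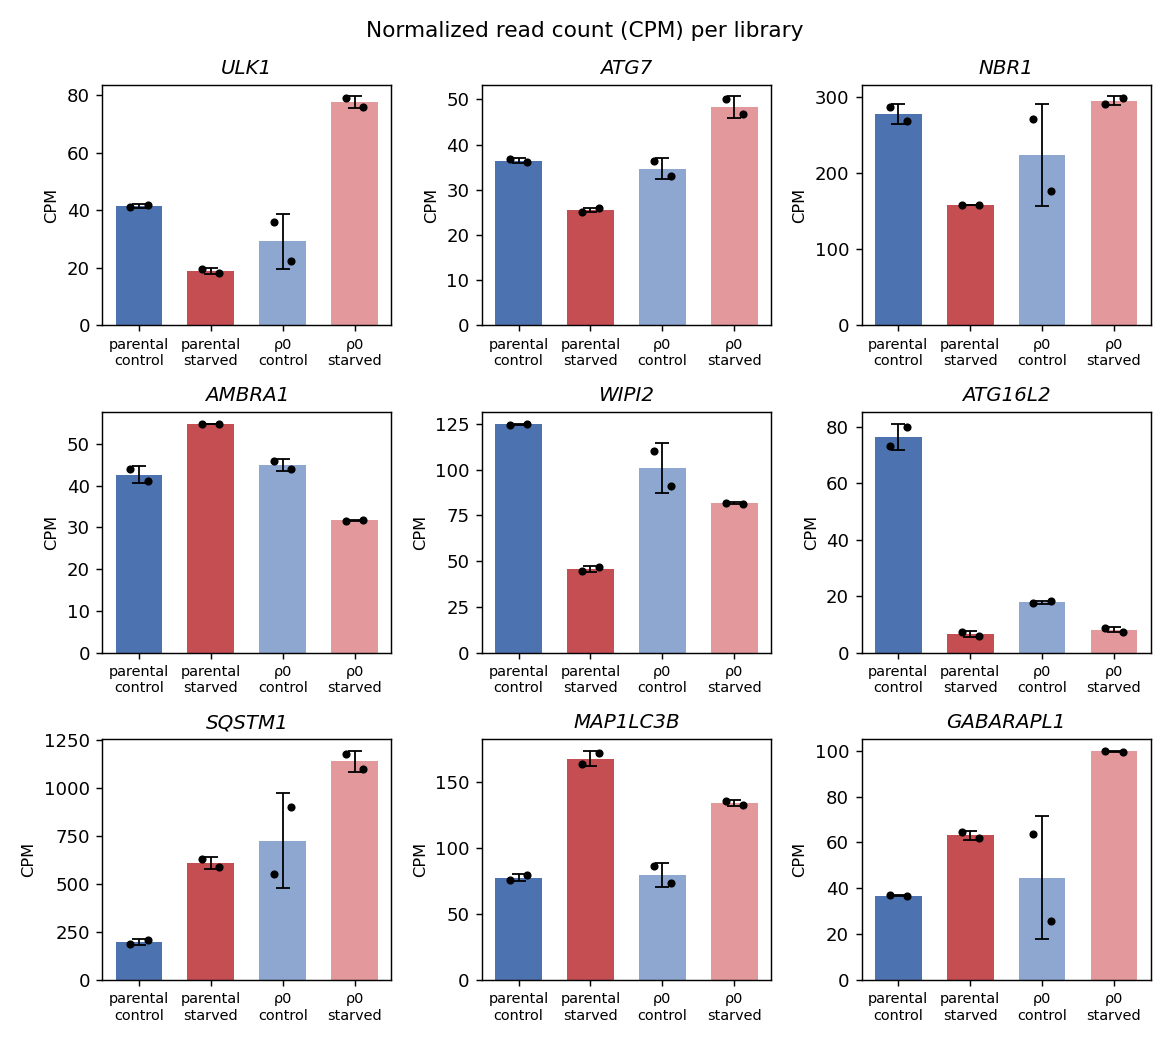
Normalized read count (CPM, y axis from 0) of 9 autophagy genes in the 4 groups. Bars are group means, black points the 2 libraries of each group, and error bars the SD (n = 2). ULK1, ATG7 and NBR1 fell in starved parental libraries and had their highest levels in starved ρ0 libraries, AMBRA1 showed the reverse, and the ρ0 control libraries are far apart for GABARAPL1, NBR1 and SQSTM1.

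The ATG8 proteins coat the growing membrane and bind the receptors. Here 1 of 5 was called higher in parental cells and 3 of 5 in ρ0 cells, beside 30.4% and 19.2% of all tested genes, and none was called lower, beside 35.5% and 22.1%. MAP1LC3B, the LC3 transcript most often followed as a readout, had 75.8 and 79.4 CPM in parental controls, 164 and 172 CPM in starved parental cells, 86.3 and 73.3 CPM in ρ0 controls and 136 and 133 CPM in starved ρ0 cells. Controls of both lines overlapped, and every starved library was above them. It rose by 1.12 (SE 0.10, edgeR adjusted p = 5.2e-05) and 0.75 (SE 0.10, edgeR adjusted p = 0.00099) on the log2 scale, and their difference of -0.36 was not called (edgeR adjusted p = 0.065). These rises were kept in every alternative. Reads of MAP1LC3B and of its near copy MAP1LC3B2, which had between 8.93 and 19.0 CPM and rose by 0.99 and 0.70, may have been shared in the counting, so the split between them is uncertain.

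GABARAPL1, a member often induced with starvation, had 36.9 and 36.5 CPM in parental controls, 64.6 and 61.9 CPM in starved parental cells, 63.5 and 25.7 CPM in ρ0 controls and 100.04 and 99.7 CPM in starved ρ0 cells. Starved libraries were above the controls in each line, but the ρ0 controls lay on both sides of the parental ones. The log2 change was 1.16 in ρ0 cells (SE 0.34, edgeR adjusted p = 0.030) and 0.78 in parental cells (SE 0.34, edgeR adjusted p = 0.078), where the shared estimate of spread included the wide ρ0 control pair. The ρ0 value was 1.96 without ρ0 control replicate 1 and 0.67 without replicate 2, and its call was lost in 7 of 17 settings. With either ρ0 control left out the parental rise was called, at 0.78 and 0.82.

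GABARAP rose in ρ0 cells, from 154 and 113 to 195 and 191 CPM (log2 change 0.53, SE 0.14, edgeR adjusted p = 0.022), and had 0.18 in parental cells. The ρ0 value was 0.77 without ρ0 control replicate 1 and 0.33 without replicate 2. GABARAPL2 was not called in either line, with -0.34 and -0.13. It went from 65.1 and 64.5 to 49.7 and 52.8 CPM in parental cells, and the wide ρ0 control pair again entered the shared estimate of spread. MAP1LC3A was nearly silent in the parental line, with 4 and 1 counts in the controls and 6 and 2 after starvation, and had 305 and 230 counts in the ρ0 controls and 259 and 204 in the starved ρ0 libraries. Per length, MAP1LC3B gave 21.5% of the signal of the 5 ATG8 genes in both parental controls and 36.0% and 36.8% after starvation, while GABARAPL2 went from 40.8% and 38.8% to 24.2% and 24.9%. In ρ0 cells GABARAP gave the largest share in each library, between 41.7% and 44%.

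Of the 6 cargo receptors, 2 were higher and 1 lower in parental cells, and 3 were higher and none lower in ρ0 cells. Of all tested genes, 30.4% were higher and 35.5% lower in parental cells, and 19.2% and 22.1% in ρ0 cells. SQSTM1 encodes p62, the receptor for ubiquitinated cargo, which is itself degraded by autophagy. It had 187 and 206 CPM in parental controls, 631 and 588 CPM in starved parental cells, 552 and 901 CPM in ρ0 controls and 1179 and 1101 CPM in starved ρ0 cells. The parental controls were the lowest, the starved ρ0 libraries the highest, and the ρ0 controls spanned the level of the starved parental libraries. The log2 fold changes were 1.63 (SE 0.21, edgeR adjusted p = 0.00033) and 0.65 (SE 0.20, edgeR adjusted p = 0.037), and the difference was -0.98 (SE 0.29, edgeR adjusted p = 0.030). The parental rise was kept in every alternative. The ρ0 rise lost its call in 8 of 17 settings, total counts included, and was 0.34 without ρ0 control replicate 1 and 1.06 without replicate 2, and the difference was -1.29 and -0.61 in the same fits.

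TAX1BP1, a receptor related to CALCOCO2, rose from 166 and 160.2 to 323 and 349 CPM in parental cells (log2 change 1.04, SE 0.16, edgeR adjusted p = 0.00074) and from 357 and 249.2 to 425 and 427 CPM in ρ0 cells (0.49, SE 0.15, edgeR adjusted p = 0.038). The ρ0 value was 0.78 without ρ0 control replicate 1 and 0.27 without replicate 2, and its call was lost in 8 of 17 settings. NBR1, a receptor that partners with p62, fell in parental cells from 287 and 268 to 158 and 158 CPM. In ρ0 cells it had 271 and 176 CPM in the controls and 291 and 299 CPM after starvation. Its starved parental libraries were below all others, while the ρ0 controls spanned a wide range. The log2 values were -0.81 (SE 0.18, edgeR adjusted p = 0.0047) and 0.40 (SE 0.18, edgeR adjusted p = 0.11), and the difference of 1.21 (SE 0.25, edgeR adjusted p = 0.0081) was called in every alternative, with 1.56 without ρ0 control replicate 1 and 0.91 without replicate 2.

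CALCOCO2 (NDP52), a receptor for bacteria and mitochondria, rose in ρ0 cells from 164 and 134 to 224 and 221 CPM (log2 change 0.58, SE 0.11, edgeR adjusted p = 0.0050) and had 0.09 in parental cells. The difference of 0.49 was 0.65 without ρ0 control replicate 1 and 0.33 without replicate 2. OPTN, another mitophagy receptor, lay between 66.3 and 71.1 CPM in all parental libraries, at 193 and 104 CPM in ρ0 controls and at 243 and 241 CPM in starved ρ0 cells. Its ρ0 value of 0.71 missed the threshold (edgeR adjusted p = 0.0505), and was 1.23 without ρ0 control replicate 1 and 0.34 without replicate 2. NCOA4, the ferritin receptor, was not called in either line (0.07 and -0.22). EPG5, a tether that brings autophagosomes to late endosomes and lysosomes, had 231 and 210.5 CPM in parental controls, 296 and 294 CPM in starved parental cells, 197 and 150.4 CPM in ρ0 controls and 363 and 381 CPM in starved ρ0 cells. It rose by 0.42 in parental cells (SE 0.13, edgeR adjusted p = 0.022) and by 1.10 in ρ0 cells (SE 0.13, edgeR adjusted p = 0.000745), and the difference was 0.68 (SE 0.18, edgeR adjusted p = 0.022). The parental rise of EPG5 lost its call with upper quartile scaling, total counts and any 1 parental library left out, and its ρ0 rise was 1.31 without ρ0 control replicate 1 and 0.93 without replicate 2.

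In full medium, 13 of the 40 genes were higher and 12 lower in ρ0 than in parental controls. This is 32.5% and 30.0%, close to the 30.5% and 31.8% of all tested genes. There were 5 DEGs higher and 3 lower, where 13.6% and 17.3% of all tested genes were DEGs. These counts include ULK2 and MAP1LC3A, which passed the filter on low counts only through the ρ0 libraries. Only a higher level in ρ0 cells could be called for them, so their calls add no support to the counts. Higher in ρ0 controls were MAP1LC3A and ULK2, whose parental counts are given above, SQSTM1 by 1.89 (SE 0.21, edgeR adjusted p = 0.00018), ATG4A by 1.24 (SE 0.12, edgeR adjusted p = 0.00011) and OPTN by 1.07 (SE 0.25, edgeR adjusted p = 0.0066), on the log2 scale. The OPTN value was 0.55 without ρ0 control replicate 1, which is under the fold threshold for a DEG, and 1.5 without replicate 2. The lower DEGs were ATG16L2 at -2.10 (SE 0.14, edgeR adjusted p = 1.5e-05), ULK3 at -1.49 and ATG4C at -1.17 (SE 0.11, edgeR adjusted p = 6.5e-05). The 8 further genes called higher were ATG10, TAX1BP1, GABARAP, ATG16L1, BECN1, ATG12, ATG5 and VMP1, with differences from 0.31 (VMP1) to 0.94 (ATG10). The VMP1 call (edgeR adjusted p = 0.048) was kept in 5 of 17 settings. It was lost with upper quartile and total count scaling, the filter of at least 10 counts in every library, limma-voom, a replicate block and the 2 groups alone. The 9 further genes called lower were PIK3R4, ATG4B, UVRAG, GABARAPL2, RB1CC1, ATG9A, EPG5, WIPI2 and NCOA4, with differences from -0.89 (PIK3R4) to -0.26 (NCOA4). The calls of WIPI2, NCOA4 and EPG5 were kept in 10, 9 and 7 of 17 settings. Leaving out any 1 of the parental or starved ρ0 libraries ended the calls of WIPI2, NCOA4, VMP1 and EPG5, and leaving out a parental control or a starved ρ0 library those of ATG9A, RB1CC1 and GABARAPL2. The EPG5 call was also lost without ρ0 control replicate 2. Without ρ0 control replicates 1 and 2 in turn, the difference was -0.55 and -0.11 for EPG5 (-0.34 with all libraries), -0.54 and -0.21 for ATG9A (-0.39), -0.80 and -0.21 for RB1CC1 (-0.51) and -0.45 and -0.12 for WIPI2 (-0.31). In the same fits it was -0.85 and -0.22 for GABARAPL2 (-0.53), -0.16 and -0.31 for NCOA4 (-0.26) and 0.13 and 0.53 for VMP1 (0.31). Without ρ0 control replicate 1 the counts were 14 higher and 19 lower, and without replicate 2 they were 20 and 13 (82.5% of the list in both, beside 77.3% and 76.3% of all tested genes). SQSTM1 was 2.20 and 1.55 in these fits, ATG16L2 was -2.07 and -2.08, and ULK1, which was not called (-0.50, edgeR adjusted p = 0.055), was -0.88 and -0.15. The median over the list was 0.005 (-0.01 over all tested genes), and without ULK2 and MAP1LC3A it was -0.05.

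A further list held 54 other autophagy genes, among them upstream transcription factors, selective receptors and fusion factors, and all 54 were tested. It too was made with earlier results of these data known. In parental cells 24 were higher and 15 lower after starvation, which is 44.4% and 27.8%, beside 30.4% and 35.5% of all tested genes. In ρ0 cells 18 were higher and 9 lower, which is 33.3% and 16.7%, beside 19.2% and 22.1%. Of the 7 transcription factors that are known to act on autophagy genes, 6 were higher and 1 lower in parental cells (85.7% and 14.3%, beside 30.4% and 35.5% of all tested genes), and 4 were higher and 2 lower in ρ0 cells (57.1% and 28.6%, beside 19.2% and 22.1%). ATF4, the main factor of the amino acid response, rose from 159 and 163 to 543 and 537 CPM in parental cells and from 144 and 201 to 322 and 319 CPM in ρ0 cells, by 1.75 and 0.89 on the log2 scale (edgeR adjusted p = 4.7e-05 and 0.0025). FOXO3, a forkhead factor held back by insulin signaling, rose from 40.8 and 37.7 to 111 and 106 CPM in parental cells and from 32.4 and 29.8 to 56.3 and 52.6 CPM in ρ0 cells, by 1.47 and 0.81 on the log2 scale. Its relative FOXO1 rose from 20.03 and 20.2 to 47.5 and 48.8 CPM and from 8.22 and 10.1 to 23.8 and 25.3 CPM, by 1.26 and 1.42. For both genes the starved libraries were above the controls in each line. DDIT3, which encodes CHOP, rose most in ρ0 cells, from 19.7 and 30.5 to 94.9 and 87.2 CPM (log2 change 1.86, edgeR adjusted p = 0.00045). MITF, a relative of TFEB, went opposite ways, with 45.3 and 43.4 CPM in parental controls, 86.9 and 94.8 CPM in starved parental cells, 41.4 and 50.9 CPM in ρ0 controls and 28.5 and 30.1 CPM in starved ρ0 cells, and its difference of -1.69 (SE 0.16, edgeR adjusted p = 0.00054) was called.

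Among the remaining genes of that list, TOLLIP, an adaptor that binds ubiquitin and LC3, rose from 69.4 and 69.4 to 227 and 225 CPM in parental cells and from 105 and 97.6 to 181 and 174 CPM in ρ0 cells, by 1.71 and 0.81 on the log2 scale. TECPR1, a membrane tether, fell from 27.3 and 25.6 to 5.07 and 4.75 CPM in parental cells and from 26.2 and 18.04 to 13.5 and 12.6 CPM in ρ0 cells. These are changes of -2.43 and -0.76 on the log2 scale, and the ρ0 value was -0.46 without ρ0 control replicate 1 and -0.98 without replicate 2. VPS16, a subunit of the HOPS complex that drives fusion with lysosomes, fell from 53.1 and 53.2 to 16.5 and 17.2 CPM and from 30.8 and 26.9 to 13.3 and 13.7 CPM, with changes of -1.66 and -1.09 on the log2 scale. The groups of these 3 genes did not overlap within either line. CCPG1, an ER-phagy receptor, had 8.93 and 9.34 CPM in parental controls, 2.93 and 3.62 CPM in starved parental cells, 22.4 and 16.7 CPM in ρ0 controls and 34.4 and 32.1 CPM in starved ρ0 cells. It fell in one line and rose in the other, with a difference of 2.25 (SE 0.25, edgeR adjusted p = 0.00084). TP53INP1, which promotes autophagosome formation, rose by 0.91 in ρ0 cells (edgeR adjusted p = 0.035), from controls of 22.0 and 11.3 CPM to 29.4 and 33.1 CPM. This value was 1.46 without ρ0 control replicate 1 and 0.51 without replicate 2. In parental cells TP53INP1 had 13.2 and 11.9 CPM in the controls and 11.9 and 9.78 CPM after starvation. That change of -0.21 was not called (edgeR adjusted p = 0.54), nor was the difference of 1.12 (edgeR adjusted p = 0.059).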

How the data were processed

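RNA-seq of MDA-MB-231 parental and ρ0 (p0, clone 27) cells, control and starved of arginine for 48 h, was used, with 2 libraries per group. The authors deposited raw counts in 1 table, with a row for each gene symbol. The submitters' processing notes name Bowtie, Partek and hg19, and the annotation and strand setting of the counting are not given in the sources used here. Totals of 25259503 to 31022155 counts set the depth.

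The analysis used edgeR 4.0.16 under R 4.3.3. Genes were kept by filterByExpr on the 4 groups (15262 of 23393), scaled by TMM and tested by edgeR's quasi-likelihood test in 1 fit of all 8 libraries with 1 mean per group (4 residual degrees of freedom, prior 3.40). Benjamini-Hochberg adjustment ran over all tested genes. Starved and control libraries were compared within parental and within ρ0 cells, both responses were compared with each other (ρ0 minus parental), and so were the controls of both lines. SE is the absolute log2 change over the root of its F statistic. CPM are TMM-scaled. Levels per length used exon lengths of GENCODE v29. Where no library of a group exceeded 3 counts, the fold was bounded by a floor of 3 counts per library (counting error only).

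The members and lists were chosen with earlier results of these data known. Values in every library are given for SQSTM1, MAP1LC3B, GABARAPL1 and ULK1, for the 5 largest called changes per contrast and, of the 54 further genes with a mean of at least 10 CPM, the 3 largest called rises and falls per starvation contrast. Genes beyond this rule that carry such values were chosen after their values were seen. The main fit did not pair libraries by replicate number. Correlations of same-numbered deviations lay between -0.053 and 0.039, which with 2 libraries per group cannot show whether equal numbers shared a culture. Alternatives were other scalings and filters, limma-voom (limma 3.58.1), DESeq2 1.42.0, a replicate block, the 2 groups alone and each library left out. The fits were tested beforehand on simulated counts that gave all 4 groups the same spread. That test therefore does not cover the wider spread of the ρ0 control pair.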

Additional observations from a re-analysis of the deposited data

Results flagged for a closer look

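The response to starvation differed between the lines, by the interaction test of edgeR, for 18 of the 40 autophagy genes (45%, beside 40.4% of all tested genes) and for 7 of the named genes of the further list. Differences are ρ0 minus parental on the log2 scale. Among the initiation genes they were 2.53 for ULK1 and -0.46 for ULK3, and in the lipid kinase complex -0.87 for AMBRA1, 0.69 for ATG14 and 0.34 for UVRAG. Among the membrane genes they were 1.15 for WIPI2 and 0.58 for ATG9A. The conjugation genes had 2.40 for ATG16L2, 1.01 for ATG10, 0.99 for ATG7, -0.49 for ATG5, -0.50 for ATG16L1, -0.64 for ATG4A and -0.90 for ATG4D. The receptors had 1.21 for NBR1, 0.49 for CALCOCO2 and -0.98 for SQSTM1, and EPG5 had 0.68. In the further list the values were 2.25 for CCPG1, 1.67 for TECPR1, 0.56 for VPS16, -1.69 for MITF, -0.90 for TOLLIP, -0.85 for ATF4 and -0.66 for FOXO3. Of the 18, 8 were called in every alternative of the processing. The 2 ρ0 control libraries enter each of these differences, and their part in the other 10 was not tested further than by leaving each out.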

How the results depend on the processing

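Of the calls reported, 18 of 25 for starvation in parental cells, 10 of 23 in ρ0 cells, 8 of 18 for the difference and 16 of 25 between the controls were kept in every alternative. Among these 16, ULK2 and MAP1LC3A were not tested with the filter of at least 10 counts in every library. Fits to the 2 groups alone called 19 genes higher and 13 lower in starved parental cells (80%, beside 83.0% of all tested genes). In starved ρ0 cells they called 8 higher and 3 lower (27.5%, beside 22.1%). Between the controls they called 10 higher and 6 lower in ρ0 cells (40%, beside 48.3%). Without a filter 17 were higher and 5 lower in starved ρ0 cells (55%, beside 30.9%). With 1 library left out, the counts ran from 11 to 20 higher and 9 to 14 lower for parental starvation, from 8 to 21 and 3 to 12 for ρ0 starvation, from 6 to 19 positive and 2 to 14 negative for the difference, and from 12 to 20 higher and 6 to 19 lower between the controls. The highest of these came without a ρ0 control library, and the cause was not tested. Without ρ0 control replicate 1, GABARAPL1 was lower in ρ0 than in parental controls (-0.52), and without replicate 2 it was higher (0.84), against 0.28 with all libraries. Nothing in the labels says that equal replicate numbers share a culture. With them as a block, 14 genes were higher and 11 lower for parental starvation (62.5%, beside 64.8% of all tested genes). For ρ0 starvation the counts were 16 and 6 (55%, beside 38.8%), and for the difference 10 and 7 (42.5%, beside 37.6%). Between the controls they were 12 and 14 (65%, beside 60.9%). Depth limited ULK2 and MAP1LC3A in the parental line, where at most 6 counts were seen.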
